A study of Mus musculus with 4 samples.

Results

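The genes described here code for 4 groups of RNA-binding proteins that steer splicing: the heterogeneous nuclear ribonucleoproteins (Hnrnp genes), the polypyrimidine tract binding proteins (Ptbp1 to Ptbp3), the poly(C)-binding proteins (Pcbp1 to Pcbp4) and the serine/arginine-rich factors (Srsf genes). They were chosen by symbol alone, with pseudogene symbols left out, and 38 of the 19840 genes of the deposited table are members. All 38 were tested by the authors. The RNA was that of mouse embryonic stem cells in the naive state, in which 2i/LIF (inhibitors of 2 kinases plus the cytokine LIF) keeps them pluripotent. Lentivirus brought in a control hairpin (shCtrl) in 1 group, and in the other a hairpin (shLincenc1 in the labels) that targets Lncenc1, a long noncoding RNA. Cells of both groups underwent 2 days of puromycin selection. Each group had 2 libraries. The labels name the cell lines E14TG2a and R1 and 2 designed hairpins per gene without tying a library to a line or a hairpin, and they do not say that the libraries within a group are from different cultures, so the spread behind every p-value may be only technical.

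The table does not state which group is the numerator of its fold changes. The group with more Lncenc1 is called the Lncenc1-high group, with libraries H1 and H2, and the other the Lncenc1-low group, with L1 and L2. Lncenc1 had 6400 (H1), 7250 (H2), 2126 (L1) and 2121 (L2) normalized reads. Since the groups are named by this transcript, its level is no check of the hairpin. A normalized read is a read count divided by the size factor of its library, and the counts were recovered from the deposited means. H1 was the deepest library with 27188579 recovered reads, and the others held 10828194 to 11389977. All 9 listed stem cell markers were measured, at means of 469 (Klf4) to 16634 (Dppa5a) normalized reads per kilobase of exon. Markers of other pluripotent states were not set beside them, so the naive state rests on the label. The summed level of the 9 was 44132 and 42248 per kilobase in H1 and H2 and 34952 and 34705 in L1 and L2. Dppa5a was its largest part, at 18874 (H1), 18643 (H2), 14175 (L1) and 14844 (L2). Esrrb and Tdgf1 overlapped between the groups, and the rest were higher in both high libraries. Of the 9, 0 were called. Of the 7 markers of fibroblasts, the cells commonly used as feeders, 5 were in the table, with sums of 16.0 and 14.5 in H1 and H2 and 41.2 and 23.7 in L1 and L2. Fbn1 made up most of the fibroblast sum, at 11.6 (H1), 9.10 (H2), 26.7 (L1) and 14.4 (L2). Thy1 was higher in both low libraries too. Col1a1, Col1a2 and Col3a1 overlapped between the groups, at means of 0.115 (Col3a1) to 0.884 (Col1a2), and 0 of the 5 were called. Both sums thus moved with the groups, the second through Fbn1 and Thy1, and their part in the members' values was not tested. In such bulk libraries fewer cells of a type and less RNA per cell cannot be told apart.

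Messenger RNA precursors are bound along their length by these proteins, which help decide which exons are kept. SR proteins mostly bind exons and recruit the spliceosome, whereas hnRNP and PTB proteins often act as silencers of nearby splice sites, and many of the genes limit their own output by splicing in an exon that sends the messenger RNA to decay. The products of Ptbp1 and Hnrnpk are known as protein partners of Lncenc1, and PTB proteins are known for controlling which form of pyruvate kinase is made. The question put to the table here is whether the level of the partners' own messenger RNAs, and those of their relatives, moved with the level of Lncenc1. Reads were counted per gene, so splice forms were not measured.

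PTB proteins prefer short pyrimidine motifs, and the Lncenc1 transcript is rich in them. In transcript Lncenc1-202 of GENCODE M21 (2764 bases) TCTT occurs 25 times, or 9.04 times per kilobase against a median of 5.71 over 12184 mouse long noncoding transcripts of at least 500 bases, 86.7% of which had a lower density. CTCTCT occurs 5 times. The C-rich motifs TCCC and CCCC, of the kind bound by the KH proteins, occur 11 and 7 times, at 3.98 and 2.53 per kilobase, against medians of 4.37 and 3.28. The stretch of 150 bases with most PTB motifs, bases 2272 to 2421 of the transcript, is shown because these motifs are densest there in the RNA that separates the groups. It holds 10 matches (6 of TCTT, 4 of CTCTCT in a single run, overlaps counted, RNA strand only) and 70.7% pyrimidines. Of the long noncoding transcripts, 2.57% hold as many matches in a stretch of this length. A longer transcript offers more such stretches, and this share was not matched for transcript length. The capitals mark the matches, written with T for U.

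Lncenc1-202: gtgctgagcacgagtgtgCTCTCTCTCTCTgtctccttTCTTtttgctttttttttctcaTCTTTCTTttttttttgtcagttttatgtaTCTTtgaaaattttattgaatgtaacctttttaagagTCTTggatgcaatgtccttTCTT

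A match is a description of the letters and not a site of binding.

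Ptbp1 and Hnrnpk, the partners of Lncenc1, were at nearly the same level in both groups. Ptbp1 (ENSMUSG00000006498.15), the founding member of the PTB family and a repressor of exons, had 6876 and 6377 normalized reads in H1 and H2 and 7106 and 6572 in L1 and L2. The groups overlapped, with means of 6626 ± 353 (SD, n = 2) and 6839 ± 377 (SD, n = 2). For Ptbp1 the authors' deposited table lists a log2 difference of -0.05 ± 0.18 (SE), with a DESeq2 adjusted p of 0.999, and the 95% interval of the fold, computed from that error, ran from 0.759 to 1.24. Its sign turned without H2 (0.0078) and without L1 (0.012). Hnrnpk (ENSMUSG00000021546.16), the most abundant member by reads, codes for a KH-domain protein of poly(C) stretches that works in splicing, transcription and translation. It had 20730 and 20670 normalized reads in H1 and H2 and 21849 and 21320 in L1 and L2. Both low libraries thus lay just above both high ones, as in 20.7% of all tested genes. Hnrnpk stands in the authors' deposited table at a log2 difference of -0.06 ± 0.17 (SE), with a DESeq2 adjusted p of 0.999, and the 95% interval of the fold ran from 0.760 to 1.21. A Ptbp1 difference of 1.52-fold and a Hnrnpk difference of 1.49-fold would have been called at these errors, while Lncenc1 itself differed 3.21-fold in the authors' deposited table.

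The promoters of both partners are shown because those of the members mostly held more CG than other promoters, from 250 bases before to 50 after the RefSeq start, with CG in capitals (RefSeq sequences, build GRCm38.p6, another build than the mm9 that the submitters' processing notes name). Ptbp1 is at chr10:79854182-79854481 on the plus strand and holds 22 CG, more than 76.9% of all 32851 promoter windows and fewer than the members' median. Hnrnpk is at chr13:58402068-58402367 on the minus strand and holds 40, more than 96.1% of them.

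Ptbp1: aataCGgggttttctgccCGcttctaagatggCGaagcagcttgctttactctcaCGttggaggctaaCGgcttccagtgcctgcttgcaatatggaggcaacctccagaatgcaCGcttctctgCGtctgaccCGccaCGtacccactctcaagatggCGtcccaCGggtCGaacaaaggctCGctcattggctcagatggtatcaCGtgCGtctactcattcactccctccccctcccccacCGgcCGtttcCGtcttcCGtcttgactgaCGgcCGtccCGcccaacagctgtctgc
Hnrnpk: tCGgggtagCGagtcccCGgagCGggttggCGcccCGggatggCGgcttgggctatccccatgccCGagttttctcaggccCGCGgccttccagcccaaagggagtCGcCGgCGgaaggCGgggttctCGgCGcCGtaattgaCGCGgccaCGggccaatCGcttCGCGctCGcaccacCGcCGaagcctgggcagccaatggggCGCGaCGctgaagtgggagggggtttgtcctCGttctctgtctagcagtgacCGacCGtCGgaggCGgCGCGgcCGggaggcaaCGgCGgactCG

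Windows were found for 33 of the 38 genes, 46 windows in all, and not for Hnrnpll, Hnrnpul2, Pcbp3, Pcbp4 and Ptbp3. The median number of CG was 32 in the members' windows and 7 in all windows. The GC box GGGCGG, searched on both strands, was in 84.8% of the members' windows and in 35.7% of all, the ETS motif CCGGAAG in 28.3% and 8.86%, and the TATA box TATAAA in 8.70% and 13.6%. The box CCAAT was in 47.8% and 37.4%, and the E box CACGTG in 15.2% and 7.15%. These shares count windows, and the ETS motif was in windows of 8 of the 33 genes. All windows were taken whether or not their genes were expressed here. Whether the members differ from other expressed genes in these features was not tested.

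**Figure D1:**
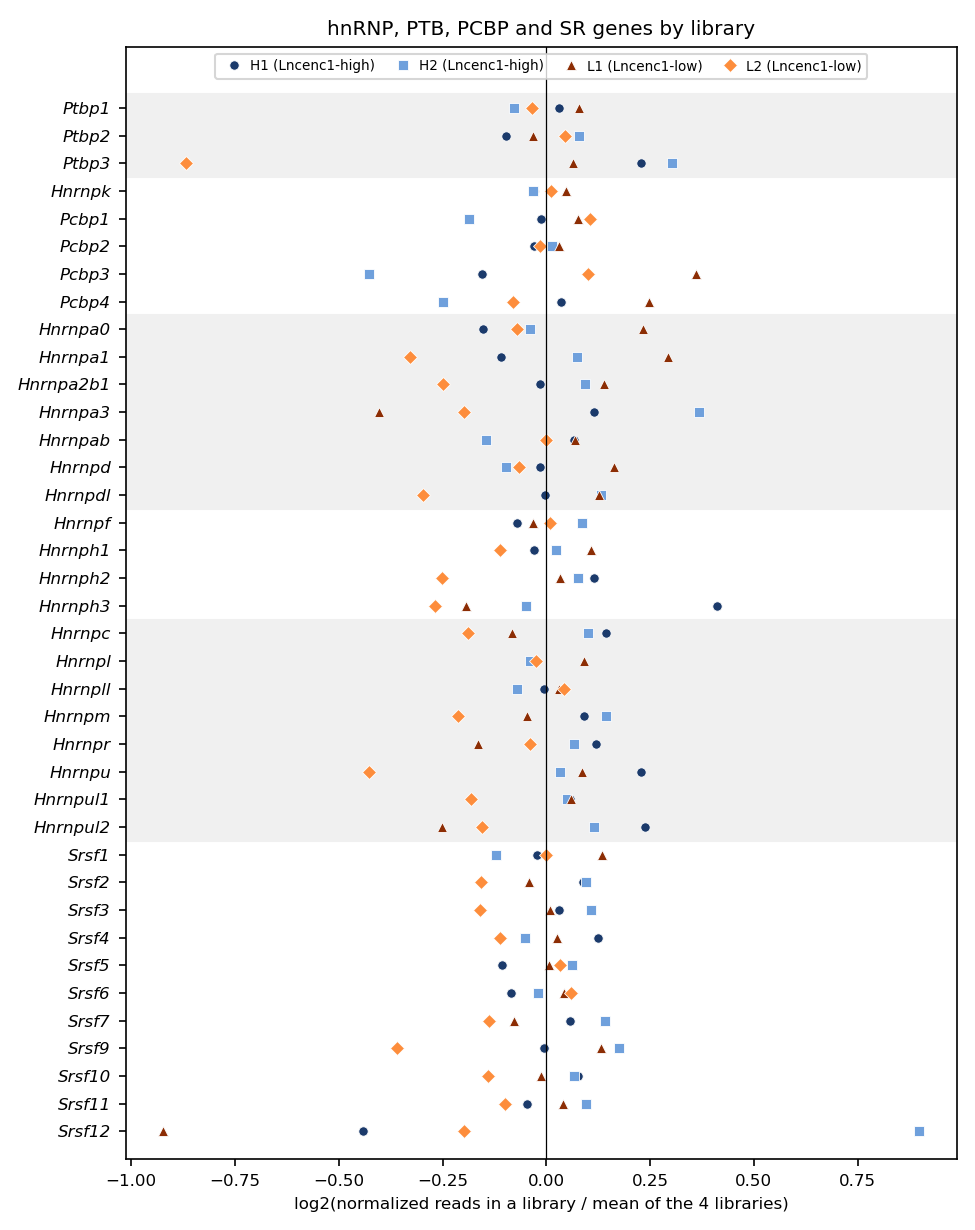
Each row is a gene and each point 1 library; the x axis is the log2 ratio of its normalized reads to the gene's mean over the 4 libraries, and shading separates the families. Hnrnpk and Pcbp2 are tight around 0, while L2 stands far to the left for Ptbp3 and H2 far to the right for Srsf12.

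Of the other PTB genes, Ptbp2 was steady and Ptbp3 was uneven. Ptbp2 codes for the neuronal form, which Ptbp1 is known to keep low by making its messenger RNA skip an exon. It had 994 and 1122 normalized reads in H1 and H2 and 1039 and 1096 in L1 and L2, with overlapping groups, and the authors' deposited table gives -0.015 ± 0.22 (SE) on the log2 scale. Ptbp3, a paralog known from blood-forming cells, had 5450 and 5741 in H1 and H2 and 4860 and 2550 in L1 and L2. Both high libraries lay above both low ones, but L1 was nearer to them than to L2. For Ptbp3 the authors' deposited table holds a log2 difference of 0.59 ± 0.26 (SE), with an unadjusted p of 0.0232 and a DESeq2 adjusted p of 0.409. In a refit without L1, which leaves L2 alone in the Lncenc1-low group, the log2 difference of Ptbp3 was 1.13, and without L2 it was 0.20. Per kilobase of exon, Ptbp1 was 11.0 to 13.4 times as high as Ptbp2 in the 4 libraries, and 1.75 to 4.07 times as high as Ptbp3, the last value in L2.

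The 4 Pcbp genes, whose products stabilise messenger RNAs and control splicing and translation through C-rich stretches, all had negative fold changes, as did Hnrnpk, and 0 of these 5 KH genes passed the test. Of all 14070 tested genes, 7126 had negative fold changes and 1.53% were called. The sign of Pcbp2 was not stable, with log2 fold changes of -0.038 to 0.0082 when 1 library was left out. Pcbp2 was the steadiest, at 1988 and 2050 normalized reads in H1 and H2 and 2073 and 2007 in L1 and L2. Pcbp1, an intronless gene that arose from a copied Pcbp2 transcript, had 552 and 489 against 587 and 599, the low libraries above the high ones. The authors' deposited table lists log2 differences of -0.015 ± 0.19 (SE) for Pcbp2 and -0.19 ± 0.25 (SE) for Pcbp1. Pcbp3 was scarcer and differed most. It had 186 and 154 normalized reads in H1 and H2 and 266 and 222 in L1 and L2, again without overlap, and the authors' deposited table lists -0.52 ± 0.35 (SE, log2) with a DESeq2 adjusted p of 0.789. Pcbp4, known as a p53-induced member, had 713 and 585 against 826 and 657, with overlap, at -0.19 ± 0.25 (SE) in the authors' deposited table. The smallest DESeq2 adjusted p of the 5 genes was that of Pcbp3.

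Among the hnRNP A, B and D genes, whose products package nascent transcripts and mostly repress exons, Hnrnpa3 differed most and the other 6 lay between -0.18 and 0.14 on the log2 scale in the authors' deposited table. Hnrnpa3 had 2766 and 3298 normalized reads in H1 and H2 and 1932 and 2226 in L1 and L2, both high libraries above both low ones. Its entry in the authors' deposited table, 0.54 ± 0.20 (log2, SE), had the smallest p of all members, 0.00732 unadjusted and 0.217 after DESeq2 adjustment over all genes. It ranged from 0.41 to 0.67 when 1 library was left out, and was called in 0 of those 4 fits. Hnrnpa1, the best known repressor of exons in this family, had 5133 and 5825 in H1 and H2, inside the range of 6780 and 4412 in L1 and L2. Its group difference was thus smaller than the gap between L1 and L2, and its log2 fold change ran from -0.31 without L2 to 0.31 without L1. Hnrnpa0 had 1534 and 1662 against 2005 and 1625, at -0.18 ± 0.21 (SE) in the authors' deposited table. Hnrnpd, also known as Auf1 for its role in messenger RNA decay, had 1271 and 1199 against 1438 and 1226, at -0.11 ± 0.21 (SE) in the authors' deposited table. Hnrnpa2b1, Hnrnpab and Hnrnpdl overlapped between the groups as well, with log2 fold changes of 0.08, -0.07 and 0.14 in the authors' deposited table.

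The 4 hnRNP F and H genes code for proteins of G-rich runs, and 0 of them passed, beside 1.53% of all tested genes. Hnrnpf had 13116 and 14624 normalized reads in H1 and H2 and 13467 and 13859 in L1 and L2, the low libraries inside the range of the high ones. Hnrnph1 had 4682 and 4860 against 5149 and 4424, and Hnrnph2 had 1297 and 1262 against 1225 and 1006. The authors' deposited table lists log2 differences of 0.02 ± 0.18 (SE) for Hnrnpf, -0.0048 ± 0.19 (SE) for Hnrnph1 and 0.20 ± 0.22 (SE) for Hnrnph2. Hnrnph3 was the scarce member of this family, with 176 and 128 normalized reads against 116 and 110. In the authors' deposited table its log2 difference, 0.44 ± 0.42 (SE), carried an error more than 2 times that of Hnrnph1.

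Of the 8 remaining hnRNP genes 6 leaned toward the Lncenc1-high group and 0 passed. Among all 14070 tested genes, 6944 leaned that way and 1.53% were called. Hnrnpul2, a paralog of Hnrnpu with a role in the response to DNA breaks, was closest to a call. It had 2245 and 2061 normalized reads in H1 and H2 and 1600 and 1710 in L1 and L2, without overlap, and the authors' deposited table lists it at 0.38 ± 0.20 (log2, SE), with an unadjusted p of 0.0542 and a DESeq2 adjusted p of 0.584. Hnrnpc, which binds U runs and keeps cryptic exons out, had 9555 and 9262 against 8165 and 7588, also without overlap, at 0.26 ± 0.18 (SE) in the authors' deposited table. Hnrnpu, a nuclear matrix protein that holds noncoding RNAs such as Xist on chromatin, had 4837 and 4225 against 4383 and 3070. Here the groups overlapped, and L2 alone was far below the rest, and the authors' deposited table lists 0.28 ± 0.22 (log2, SE). Hnrnpm and Hnrnpr had both high libraries on top, at log2 fold changes of 0.24 and 0.19 in the authors' deposited table, and Hnrnpul1 overlapped, at 0.11. Hnrnpl, which binds CA repeats, and its paralog Hnrnpll, known for the splicing of Ptprc in lymphocytes, had both low libraries on top. The sizes were small, with 6443 and 6414 against 7024 and 6485 for Hnrnpl and log2 fold changes of -0.07 for both in the authors' deposited table.

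Of the 11 SR genes 8 had positive and 3 negative fold changes, and 0 passed. Among all 14070 tested genes, 6944 were positive, 7126 were negative and 1.53% were called. Srsf1, the classical SR protein gene and a proto-oncogene, had 8688 and 8118 normalized reads in H1 and H2 and 9684 and 8824 in L1 and L2. Srsf6 had 7338 and 7685 against 8021 and 8115. In both genes the low libraries lay above the high ones, at log2 fold changes of -0.14 ± 0.18 (SE) for Srsf1 and -0.10 ± 0.18 (SE) for Srsf6 in the authors' deposited table. Srsf2, Srsf3, Srsf7 and Srsf10 showed the reverse order, with log2 fold changes of 0.14 to 0.21 in the authors' deposited table. Srsf3, the smallest family member and known to be needed by pluripotent cells, had 7469 and 7878 against 7356 and 6544. Srsf4, Srsf5, Srsf9 and Srsf11 overlapped between the groups, with log2 fold changes from -0.04 (Srsf5) to 0.18 (Srsf9) in the authors' deposited table. Srsf12 was the scarcest of the 38 members, with 57, 59, 17 and 28 reads in H1, H2, L1 and L2, or 29.3, 74.0, 20.9 and 34.6 normalized reads. H2 alone was high, and the value in the authors' deposited table, 0.88 ± 0.76 (log2, SE), became 0.075 without H2 and 1.41 without H1.

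**Figure D2:**
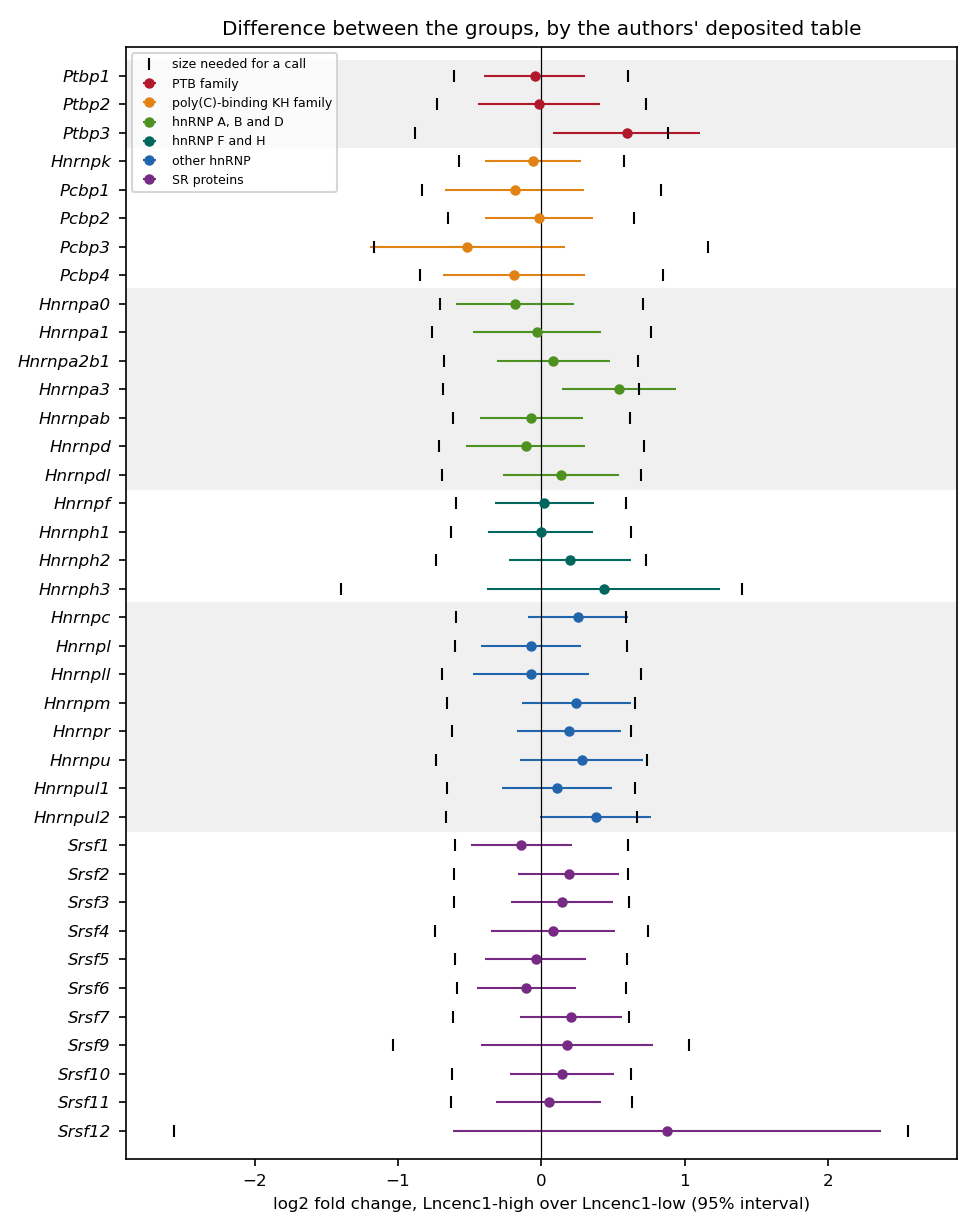
Points are the log2 fold changes of the authors' deposited table, Lncenc1-high over Lncenc1-low, with 95% intervals from its standard errors; black ticks mark the size at which a gene with that error would have been called. All 38 points lie inside their ticks, and the intervals of Ptbp3 and Hnrnpa3 alone leave out 0.

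Over the 38 members the authors' deposited table holds 0 calls at a DESeq2 adjusted p under 0.05, and 1.53% of all 14070 tested genes were called (0.505% higher in the Lncenc1-high group, 1.02% higher in the Lncenc1-low group). A share of 1.53% is under 1 gene in a list of this size, so the count of 0 is near the background. At an unadjusted p under 0.05 were 2 members, Hnrnpa3 and Ptbp3, and 8.82% of all tested genes. Limma voom on the recovered counts called 0 members and 0.0427% of the genes it tested. At an unadjusted p under 0.05 by limma voom were 3 members and 10.2% of those genes. The median log2 fold change was 0.07 over the members and -0.0054 over all tested genes in the authors' deposited table, with 21 members positive and 17 negative. Both high libraries lay above both low ones in 12 members (20.6% of all tested genes) and the reverse held in 7 (20.7% of all tested genes), and the other 19 overlapped between the groups. Groups that did not overlap made up 41.3% of all tested genes.

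The deposited errors bound how large a difference between these libraries could have gone unseen. Where the libraries of a group are only technical replicates, the bounds leave out the spread between cultures. The 95% interval of the fold lay within 1.5-fold in either direction for 24 members, Ptbp1 and Hnrnpk among them, and within 2-fold for 34. The other 4 were Ptbp3, with an interval up to 2.16-fold, Pcbp3, down to 0.437, Hnrnph3, up to 2.38, and Srsf12, up to 5.16. A call needed a fold of 1.49 (Hnrnpk) to 5.90 (Srsf12), with a median of 1.58. Differences under 1.49-fold could therefore not be called in any member at this depth and number of libraries. Of the members, 30 (78.9%) had a log2 fold change under 0.25 in size in the authors' deposited table, and so did 50.9% of all tested genes and 57.8% of the 11351 tested genes within the members' range of means. That range, from 39.7 (Srsf12) to 21142 (Hnrnpk), takes in most tested genes and does not match the members in abundance. The median standard error in the authors' deposited table was 0.20 for members, 0.32 for all tested genes and 0.28 for those within that range.

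**Figure D3:**
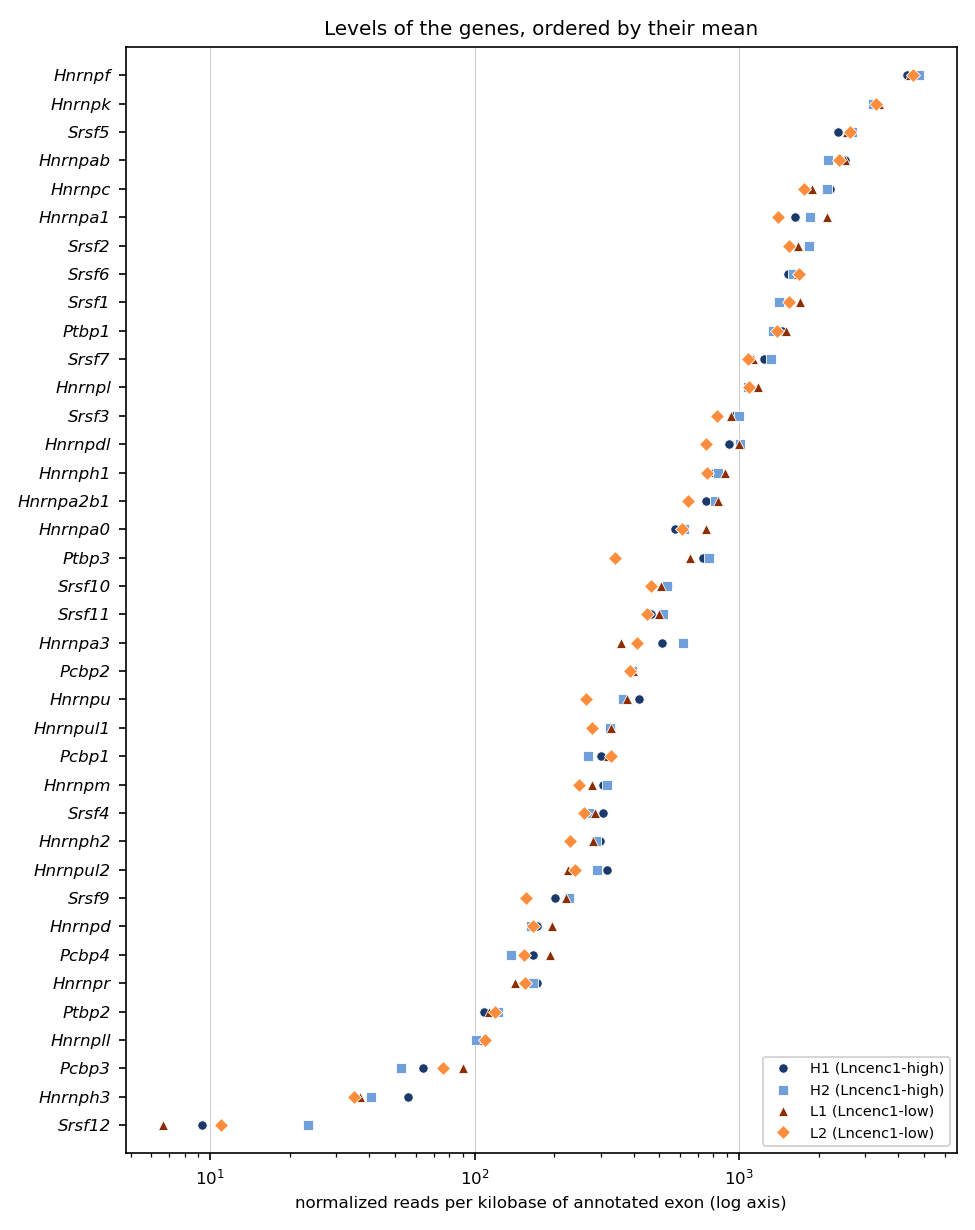
Each row is a gene and each point 1 library, at its normalized reads per kilobase of annotated exon on a log axis, ordered by the mean. Levels run from 4518 for Hnrnpf to 12.6 for Srsf12, and the libraries of a gene mostly lie closer together than distant genes in the order.

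The genes differed far more from each other in level than most did between libraries. On the scale of normalized reads per kilobase of exon, averaged over the 4 libraries, Hnrnpf was highest at 4518 (4305 to 4799), followed by Hnrnpk at 3270 (3197 to 3379), and these ranges overlapped neither each other nor that of the next gene. Srsf5 at 2558 and Hnrnpab at 2395 overlapped in range, as did each next neighbour down to Ptbp1, which was at 1420 (1345 to 1499). Ptbp1 stood clear of Srsf7, the next at 1194, and the other gaps between neighbours came below Hnrnpl, Hnrnpr, Hnrnpll and Hnrnph3. Hnrnpk was above 98.7% and Ptbp1 above 96.9% of tested genes on this scale. At the other end stood Ptbp2 at 116, Hnrnpll at 106, Pcbp3 at 70.7, Hnrnph3 at 42.0 and Srsf12 at 12.6. Hnrnpk was 8.11 to 8.55 times as high per kilobase as Pcbp2 in the 4 libraries. The exon length counts all annotated exons of a gene, including those of rare transcripts, so genes with many of them, such as Hnrnpr with 22199 bases, are set low. Ptbp2 is the main form in neurons, and of 6 neuron markers Tubb3 alone was abundant, at 812 and 518 per kilobase in H1 and H2 and 1194 and 271 in L1 and L2. The other 5 had means of 0.0735 (Dcx) to 7.52 (Map2).

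Many members were lowest in the same library. L2 was the lowest of the 4 libraries in 18 members (47.4%) and in 31.2% of all tested genes, and the highest in 3 members (7.89%) against 31.7%. L1 exceeded L2 in 28 members (73.7%) and in 49.7% of all tested genes. The median log2 ratio of L1 to L2 was 0.12 over the members, and it reached 0.93 in Ptbp3, 0.62 in Hnrnpa1, 0.51 in Hnrnpu and 0.49 in Srsf9. H1 exceeded H2 in 19 of the 38 members, with a median log2 ratio of -0.0018. Without L2 the members' median log2 fold change was -0.021, and without L1 it was 0.14. The members' genes are not independent of each other within a library, and what sets L2 apart was not tested. The summed level of the 6 neuron markers was also lowest in L2, at 286 per kilobase, and highest in L1, at 1216. It was 825 and 529 in H1 and H2. Nearly all of this sum was Tubb3, at 812 (H1), 518 (H2), 1194 (L1) and 271 (L2). Elavl4 had the same order of libraries, but Map2 and Elavl3 were highest in L2, at 9.24 and 3.23. Dcx and Rbfox3 were near the floor. The sum is thus mostly a value of Tubb3, and its part in the members' values was not tested.

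**Figure D4:**
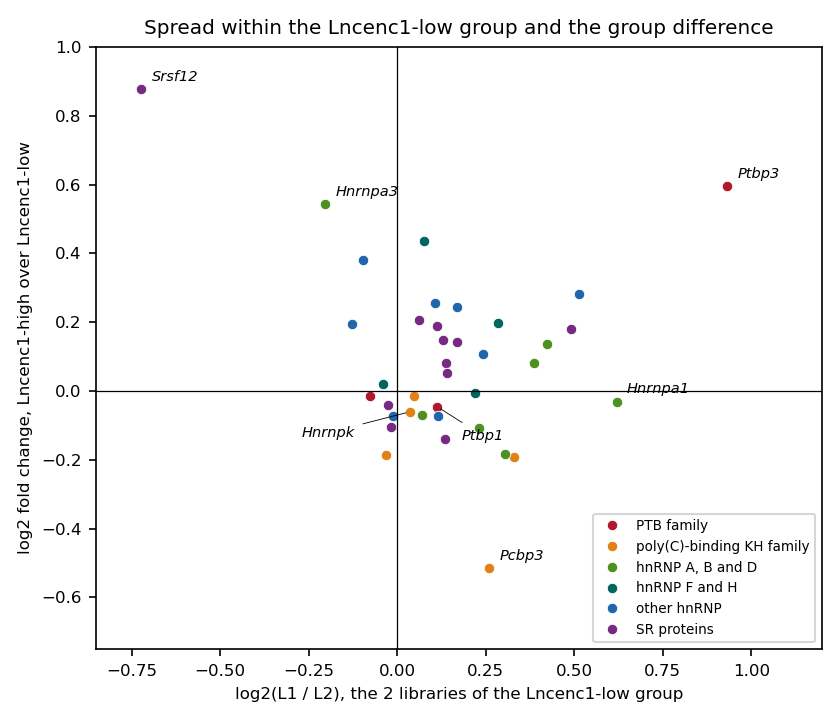
Each point is a gene, with the log2 ratio of L1 to L2 on the x axis and the log2 fold change of the authors' deposited table on the y axis, coloured by family. Most points lie right of 0, and Ptbp3 and Hnrnpa1 show gaps between L1 and L2 larger than their group difference. So do other members, among them Hnrnpa2b1, Hnrnpdl, Hnrnpu and Srsf9.

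Several of these genes have near-identical copies in the genome, and reads may be split or lost between them. Of the distinct 50-base stretches of each gene's GENCODE M21 transcripts, 36.8% of those of Hnrnpf, 28.2% of Hnrnpa1 and 27.1% of Hnrnpa3 recur in transcripts of other genes, of which 7 of 7, 18 of 19 and 40 of 43 are annotated as pseudogenes. For Hnrnpk the share was 14.5%, for Ptbp1 4.75%, and 14 members had none. The copy Gm6793, annotated as protein-coding and holding 20.5% of the stretches of Hnrnpa3, had 83.7 and 89.1 normalized reads in H1 and H2 and 39.4 and 26.0 in L1 and L2. It differed in the same direction, by 1.40 ± 0.59 (log2, SE) in the authors' deposited table, with a DESeq2 adjusted p of 0.356. Hnrnpa3 and Gm6793 values are uncertain where reads could be assigned to either. Exons of 6 members overlap those of another gene over at least 20% of their bases, mostly on the opposite strand, with 43.0% in Srsf4, 36.2% in Pcbp2 and 20.7% in Ptbp1. The sources used here do not give the strand setting of the counting, so those levels may hold reads of both genes or lack ambiguous ones.

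The other genes of the splicing machinery gave the same count of calls. A list of 90 spliceosome subunits, SR protein kinases and further splicing regulators was tested in full, and 0 were called in the authors' deposited table by DESeq2 or by limma voom, with 3 at an unadjusted p under 0.05 in the authors' deposited table. Of all tested genes, 1.53% were called and 8.82% were at an unadjusted p under 0.05. The median log2 fold change of the list was 0.0039 in the authors' deposited table. Both high libraries were on top in 17 of the 90 genes (20.6% of all tested genes) and both low libraries in 14 (20.7% of all tested genes). None of these counts of the list was above the share over all tested genes. Toward the Lncenc1-low group, Mbnl3, a muscleblind splicing factor, had the smallest p, at -1.24 ± 0.49 (SE) and a DESeq2 adjusted p of 0.276 in the authors' deposited table. It had 46.2 (H1), 55.2 (H2), 118 (L1) and 120 (L2) normalized reads. Next were its paralog Mbnl2 at -0.65 ± 0.33 (SE) and Esrp1, an epithelial splicing regulator, at -3.42 ± 1.88 (SE) in the authors' deposited table. Mbnl2 overlapped between the groups, at 350 (H1), 420 (H2), 409 (L1) and 797 (L2) normalized reads, with L2 alone far above the rest. Esrp1 rested on L2, where 361 normalized reads stood beside 13.3, 21.3 and 8.63 in H1, H2 and L1. Toward the Lncenc1-high group stood Tardbp, which binds UG repeats, at 0.40 ± 0.20 (SE), and Prpf3, a subunit of the spliceosome, at 0.41 ± 0.22 (SE) in the authors' deposited table. Pkm, the pyruvate kinase gene whose exon choice PTB and hnRNP proteins control, had 54885 and 53388 normalized reads in H1 and H2 and 48497 and 37647 in L1 and L2. Its log2 fold change was 0.33 ± 0.19 (SE) in the authors' deposited table (DESeq2 adjusted p = 0.69), and its forms were not told apart.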

How the data were processed

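The 4 libraries, 2 per group, were strand-specific and made from total RNA after removal of ribosomal RNA, per the labels' protocols. TopHat2, HTSeq, DESeq2 1.8.2 and mm9 are named in the submitters' processing notes. The sources used here give neither the annotation release nor the strand setting.

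Per the file headers, the 1 deposited table has a gene's normalized read count averaged over the 4 libraries (a signal), its log2 fold change with the standard error, the Wald statistic (a score) and p-values, raw and adjusted, all computed by the authors. An adjusted p is given for 14070 of 19840 genes. Symbols matched 19707 genes by Ensembl identifier. A gene was called at a deposited adjusted p under 0.05, adjusted over all tested genes. Intervals are the deposited estimate ± 1.96 standard errors, and the size needed for a call is the smallest Wald statistic of a called gene, 3.37 in size, times the gene's error.

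Each library's whole counts were worked out from the deposited means, each of which adds 4 whole counts multiplied by library-specific steps. The steps were read off values shared by many genes with few reads. Whole-number solutions to 15 digits were listed, and the one whose negative binomial refit gave the deposited fold change within 0.00001 was taken where the next was at least 10 times worse (within 0.001 for a single solution; where a library had no read, a single solution was taken without that check). This gave counts for 19822 genes, all 38 members among them, where the refit differed from the deposited value by at most 1.6e-06. Size factors were 1.95, 0.797, 0.811 and 0.809 for H1, H2, L1 and L2. On simulated counts of 1500 tested genes the recovery accepted 1499, and all 1499 were right. Both tests below were run on counts drawn from a negative binomial model with the dispersions and size factors that the refit uses. The assumptions of that model were therefore not tested.

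The recovered counts served descriptions and alternatives: limma voom (limma 3.58.1, R 4.3.3), and a Wald refit (negative binomial), holding each gene at the dispersion implied by its deposited error, on 14047 genes, with library totals or without 1 library, whose lone partner is assumed to vary like the others. Exon lengths, overlaps, the 50-base stretches and Lncenc1 motifs came from GENCODE M21, of another build (GRCm38) than the authors'. The members and lists were chosen with earlier results of these data known. Named in full were Ptbp1, Hnrnpk, the other PTB and PCBP genes, any called member and the 4 with the smallest p in each direction of the rest, and of the other splicing genes any called one and 3 in each direction, 1 of which is not reported here. Every other member is named at least once.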

Additional observations from a re-analysis of the deposited data

How the results depend on the processing

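The alternatives were no filter on low genes, a mean of at least 50 normalized reads (which leaves out Srsf12), library totals in place of size factors, limma voom, and each library left out in turn. The number of members called was 0 in all of these except 1 (Ptbp3) without L1, a range of 0 to 1 over the fits without 1 library, and no other splicing gene was called in any. Each fit without 1 library leaves a group with a lone library, so the call of Ptbp3 rests on L2 alone in the Lncenc1-low group. The members' median log2 fold change ranged from -0.021 to 0.14 over those fits, the first without L2 and the second without L1. The fold change of Hnrnpk kept its sign throughout. That of 15 members changed sign, all with a deposited size of at most 0.18, and none of these was called in either direction. Over the fits without 1 library the log2 fold change ranged from -0.10 to 0.012 for Ptbp1, -0.10 to 0.071 for Ptbp2, -0.038 to 0.0082 for Pcbp2, -0.31 to 0.31 for Hnrnpa1, -0.098 to 0.29 for Hnrnpa2b1, -0.18 to 0.032 for Hnrnpab, -0.22 to 0.011 for Hnrnpd, -0.060 to 0.36 for Hnrnpdl, -0.059 to 0.098 for Hnrnpf, -0.11 to 0.11 for Hnrnph1, -0.0073 to 0.23 for Hnrnpul1, -0.011 to 0.17 for Srsf4, -0.13 to 0.043 for Srsf5, -0.044 to 0.45 for Srsf9 and -0.020 to 0.12 for Srsf11. With library totals Hnrnpf changed sign to -0.015. The cause of these changes was not tested. The count of calls over all genes was 215 as deposited, 178 with no filter, 195 with the mean filter, 237 with library totals, 6 by limma voom, and 54, 77, 193 and 45 without H1, H2, L1 and L2. No paired analysis was possible because the deposited table has no column per library and the recovered libraries carry no replicate number. The number of libraries, 2 per group, limits the precision of every value, and the fewest reads were those of Srsf12, with 17 to 59 in a library. How much of each error is counting error was not tested.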
